A study of Bos taurus with 7 samples.

Results

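Ribosome biogenesis was described here through 46 genes whose proteins build ribosomes in the nucleolus, in primary follicles (PF, 4 libraries) and secondary follicles (SF, 3 libraries) of the cow. The members were listed by name, with earlier results of these data known, and the TPM (a length-corrected level with an equal total in every library) and estimated counts of their RefSeq transcripts were summed per gene. All 46 were found among the 23704 genes matched. They comprised 7 proteins of small nucleolar ribonucleoprotein particles (snoRNPs), 23 of the small subunit processome, 11 factors of the large subunit, and 5 factors of late small subunit maturation and export.

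A ribosome starts as a long precursor RNA made by RNA polymerase I in the nucleolus. Box C/D and box H/ACA snoRNPs, guided by their small RNAs, methylate it and convert uridines to pseudouridine, while the processome, a very large assembly around the U3 snoRNP, folds and cuts the part that becomes the small subunit. A separate set of factors builds the large subunit, and late particles are carried through the nuclear pore by the exportin XPO1 and finished in the cytoplasm. The growing oocyte is known for a large nucleolus and for storing ribosomes for the embryo, and dividing granulosa cells make ribosomes as well.

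The follicles came from ovaries of young Holstein Friesian dairy cows collected at an abattoir. They were freed mechanically from the cortex, sorted by sieve and by eye, left to recover in medium with insulin, transferrin, selenium and FSH, and pooled for each replicate without further treatment. A PF is an oocyte inside a single complete layer of cuboidal granulosa cells, and an SF has several layers. Each library holds whole follicles, so the RNA of oocyte and granulosa cells was measured together, and fewer cells of a type and less RNA per cell cannot be told apart. The study describes its pools as biological replicates, but the sources used here do not tell which animals contributed to which library. The p-values therefore reflect the spread between these pools alone, and how much of that spread is technical is not known.

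Libraries held 18788105 to 23764615 estimated counts, and 12188 to 13034 genes reached 1 TPM. Of the oocyte list, 25 genes such as *GDF9*, *BMP15* and the zona pellucida genes, none was at 0 in every library, and its summed level was 4964 to 9409 TPM in PF replicates 1 to 3 and 866 to 3351 TPM in SF. Of the granulosa list, 27 genes such as *FOXL2*, *AMH* and *INHA*, none was at 0 in every library either. Its sum was 2576 to 3861 TPM in PF replicates 1 to 3 and 8591 to 10049 TPM in SF. *GSTA1* alone held 4864, 5141 and 3935 TPM in SF replicates 1 to 3. In normalised counts 14 genes of this list were higher in every SF library than in PF replicates 1 to 3. Lower in every SF library were 2, *WT1* and *RSPO1*, and *FOXL2* overlapped. PF replicate 4 stood apart. Its 17 stromal fibroblast genes, collagens among them, summed to 15885 TPM against 1021 to 2151 TPM in the other 6 libraries, and its oocyte list to 1828 TPM. Like the study, the main comparison left this library out, so it held 3 libraries in each group, and what PF replicate 4 changed is given with the results.

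All 46 members were at 1 TPM or more in each of the 7 libraries, with 42 to 14046 estimated counts per member and library. The median of their mean levels was 42.9 TPM, against 15 TPM for the 13643 genes at 1 TPM or more, and 40 of the 46 lay above that value. The members took 0.659%, 0.585% and 0.421% of the matched counts in PF replicates 1 to 3, and 0.330%, 0.284% and 0.276% in SF replicates 1 to 3. PF replicate 4 gave 0.387%. Every PF library thus lay above every SF library. The PF mean was 0.555% ± 0.122 and the SF mean 0.297% ± 0.029 (SD, n = 3), a ratio of 1.87. In TPM the members summed to 4061, 3453 and 2275 in PF, to 2738 in PF replicate 4, and to 1830, 1809 and 1871 in SF. The ratio of the means was 1.78 on this scale. The SF sums lay close together, whereas PF replicate 3 was nearer to SF than to the other PF libraries. The 5 highest members held 31.4% of the member TPM in PF and 27.2% in SF.

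**Figure D1:**
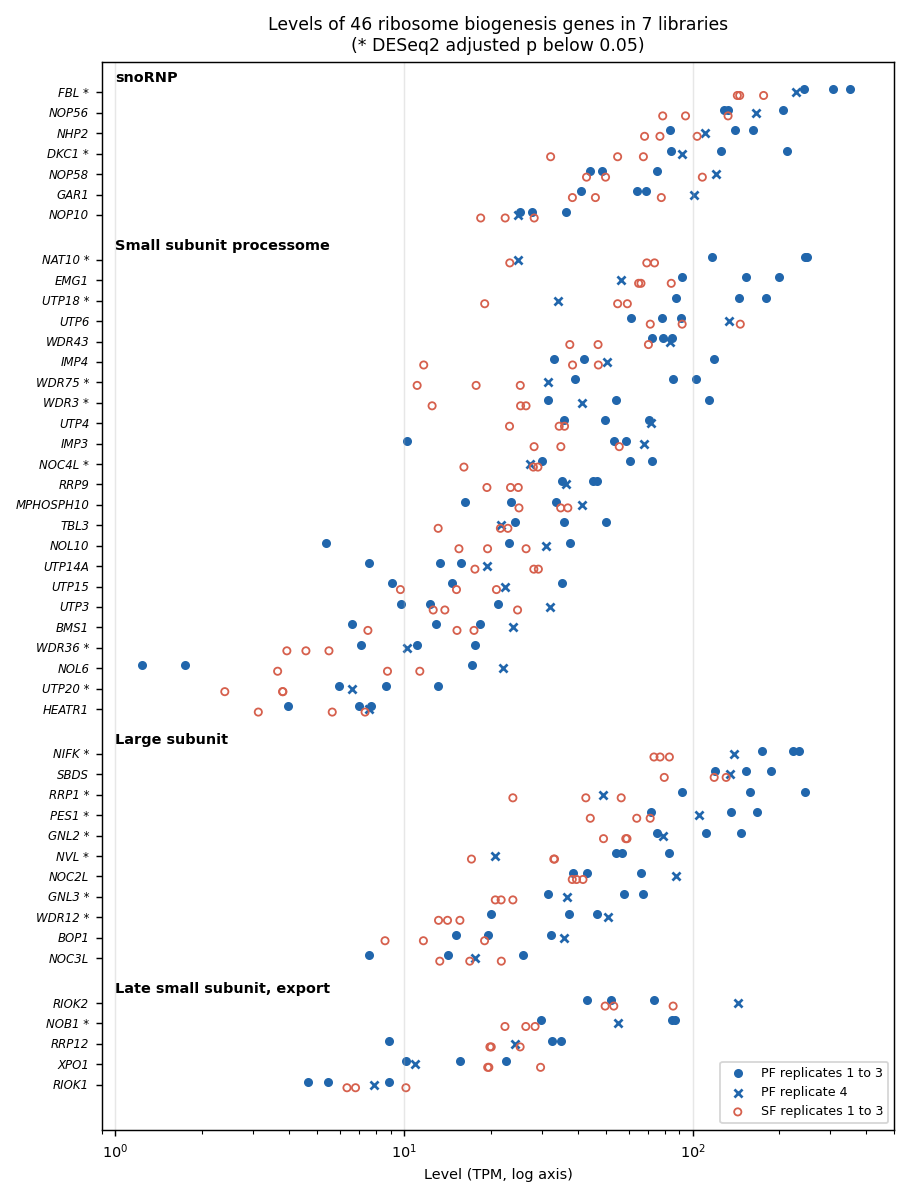
Level in TPM (log axis) of the 46 ribosome biogenesis genes, by group and, within a group, by mean level. Filled circles are PF replicates 1 to 3, crosses PF replicate 4, which the main comparison left out, and open circles SF replicates 1 to 3, and a star marks a DESeq2 adjusted p below 0.05. Among the starred genes every PF circle lies to the right of every SF circle, while most of the late small subunit genes overlap.

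Between PF and SF, 17 members fell in SF and none rose (DESeq2, adjusted p below 0.05), relative to all genes, and this direction turned for all 17 when the libraries were scaled by oocyte markers instead. Fold changes below are log2 of SF over PF ± SE. One member, *NOL6*, received no p, so the 17 were 37.8% of the 45 tested, and 11.0% of all 15056 genes tested fell while 8.14% rose. The fitted fold change was below 0 for 32 members and above 0 for 14, where 49.2% of all genes were below 0. The median log2 fold change was -0.55 over the members (range -1.91 to 1.13) and 0.02 over all genes tested. In normalised counts, 20 members were lower in every SF than in every PF library and 1, *UTP14A*, was higher, against 18.9% and 16.9% of all genes. The calls depended on the tool. On simulated counts with known changes DESeq2 called more unchanged than changed genes, and edgeR called none. A DESeq2 call here is therefore not a secure change, and the absence of edgeR calls does not show that nothing changed. The quasi-likelihood test of edgeR gave no gene of 14293 an adjusted p below 0.05 (smallest 0.052), and at an unadjusted p below 0.05 it placed 20 members lower and 1 higher, with 13.5% and 13.4% of all genes. limma on log2(TPM + 1) called 3 members lower, *WDR75*, *RRP1* and *NIFK*, with 4.25% of all genes lower and 1.77% higher.

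The snoRNP proteins modify the precursor RNA, and 2 of 7 fell, with a median log2 fold change of -0.46. *FBL* encodes fibrillarin, the methyltransferase of box C/D particles. It had 307, 352 and 244 TPM in PF replicates 1 to 3 and 176, 146 and 143 TPM in SF replicates 1 to 3, with 227 TPM in PF replicate 4. All 4 PF libraries were above the SF libraries, and the log2 fold change was -0.83 ± 0.26 (SE, DESeq2 adjusted p = 0.011). *DKC1* encodes dyskerin, the pseudouridine synthase of box H/ACA particles. Its level was 212, 126 and 84.3 TPM in PF, 91.6 TPM in PF replicate 4 and 55, 67.6 and 32.2 TPM in SF. The groups did not overlap and PF replicate 4 lay inside the PF range, with a log2 fold change of -1.32 ± 0.40 (DESeq2 adjusted p = 0.0092). The other proteins of both particles did not pass. *NOP58*, a core protein beside fibrillarin, measured 75.5, 48.5 and 44.3 TPM in PF, 120.5 TPM in PF replicate 4 and 42.9, 49.96 and 108 TPM in SF. Its groups overlapped, SF replicate 3 being the highest of the 6 libraries (0.43 ± 0.50, DESeq2 adjusted p = 0.6). *NOP10*, the smallest H/ACA protein, had the lowest level of the group, with 36.5, 27.8 and 25.3 TPM in PF, 24.8 TPM in PF replicate 4 and 28.3, 22.4 and 18.5 TPM in SF (-0.26 ± 0.29, DESeq2 adjusted p = 0.59). Its groups overlapped too. *NOP56*, *NHP2* and *GAR1* had fold changes of -0.46, -0.48 and 0.08. So within either particle the catalytic subunit was called and its partners were not. The difference between subunits was not tested.

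The processome is ordered by its building blocks. The UTP-A complex binds the nascent RNA first. Of its 5 subunits among the members 1 fell, although all 5 fold changes were below 0 (median -0.48). Its subunit *NOL11*, listed with the other small subunit factors, went the other way and did not pass (0.745 ± 0.39, DESeq2 adjusted p = 0.17). *WDR75*, a UTP-A protein, had the lowest fold change of all members. It was read at 103, 85.5 and 39.2 TPM in PF, 31.5 TPM in PF replicate 4 and 25.3, 17.8 and 11.1 TPM in SF. No SF library reached any PF library, and the log2 fold change was -1.91 ± 0.44 (DESeq2 adjusted p = 4.2e-04). *HEATR1*, a long helical repeat protein of the same complex, was the lowest processome member, at 7.67, 7.02 and 3.96 TPM in PF, 7.57 TPM in PF replicate 4 and 7.34, 5.65 and 3.13 TPM in SF. These values overlapped (-0.08 ± 0.62, DESeq2 adjusted p = 0.95). The only *HEATR1* transcript matched is 1087 bases long, and the table lists 4. *UTP4*, *UTP15* and *WDR43* had fold changes of -0.62, -0.16 and -0.47 and did not pass.

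Of the UTP-B complex, which joins next, 3 of the 5 subunits among the members fell (median -1.21). Its subunit *PWP2*, listed with the other small subunit factors, fell too (-1.515 ± 0.47, DESeq2 adjusted p = 0.012). *UTP18* stood at 179, 145 and 87.4 TPM in PF, 34.1 TPM in PF replicate 4 and 55, 59.4 and 19.1 TPM in SF. PF replicates 1 to 3 were all higher than SF, but PF replicate 4 was below SF replicates 1 and 2 (-1.52 ± 0.47, DESeq2 adjusted p = 0.01). *WDR3* had 114, 54.5 and 31.5 TPM in PF, 41.4 TPM in PF replicate 4 and 25.4, 26.5 and 12.5 TPM in SF. The PF libraries spread widely but all exceeded SF (-1.49 ± 0.49, DESeq2 adjusted p = 0.019). *WDR36*, at 17.6, 11.1 and 7.13 TPM in PF, 10.2 TPM in PF replicate 4 and 5.5, 4.58 and 3.94 TPM in SF, showed the same order at a lower level (-1.21 ± 0.39, DESeq2 adjusted p = 0.015). *TBL3* had a fold change of -0.81 (DESeq2 adjusted p = 0.088), and *UTP6* one of 0.56 (DESeq2 adjusted p = 0.38).

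The U3 and MPP10 proteins hold the U3 RNA against its target, and none of 5 passed (median 0.16, edgeR 1 lower at an unadjusted p below 0.05). *RRP9*, which is specific to the U3 particle, came closest, with a fold change of -0.78 ± 0.31 (DESeq2 adjusted p = 0.058), and with PF replicate 4 kept it was called (DESeq2 adjusted p = 0.046). *MPHOSPH10*, *IMP3*, *IMP4* and *UTP3* ranged from -0.91 to 0.49, and *IMP3* in PF replicate 3 (10.3 TPM) was far below its other libraries (28.3 to 68.1 TPM).

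Among the 8 other processome proteins 3 fell. *NAT10*, the acetyltransferase that modifies cytidines of small subunit RNA, was the most abundant processome member. It had 250.0, 245 and 116 TPM in PF, 24.9 TPM in PF replicate 4 and 73.8, 69.4 and 23.3 TPM in SF. PF replicates 1 to 3 were above SF, yet PF replicate 4 was close to SF replicate 3, the lowest (-1.77 ± 0.48, DESeq2 adjusted p = 0.0034, and 0.24 with PF replicate 4 kept). *UTP20*, a very large scaffold protein, had 8.65, 13.2 and 5.97 TPM in PF, 6.61 TPM in PF replicate 4 and 3.81, 3.8 and 2.4 TPM in SF. It was low throughout, with no overlap (-1.36 ± 0.40, DESeq2 adjusted p = 0.0065). *NOC4L* had a fold change of -1.02 ± 0.39 (DESeq2 adjusted p = 0.047). *UTP14A*, a cofactor of the helicase that dismantles the processome, had 7.57, 15.7 and 13.4 TPM in PF, 19.5 TPM in PF replicate 4 and 29.2, 17.6 and 28.2 TPM in SF. Its fold change was the highest of the members, 1.13 ± 0.50, and did not pass (DESeq2 adjusted p = 0.091). PF replicates 1 to 3 lay below SF, and PF replicate 4 between SF libraries. *EMG1*, *BMS1* and *NOL10* did not pass (-0.87, 0.23 and 0.13). *NOL6* had 17.2, 1.24 and 1.75 TPM in PF, 22 TPM in PF replicate 4 and 3.66, 11.4 and 8.78 TPM in SF, and DESeq2 withheld its p.

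**Figure D2:**
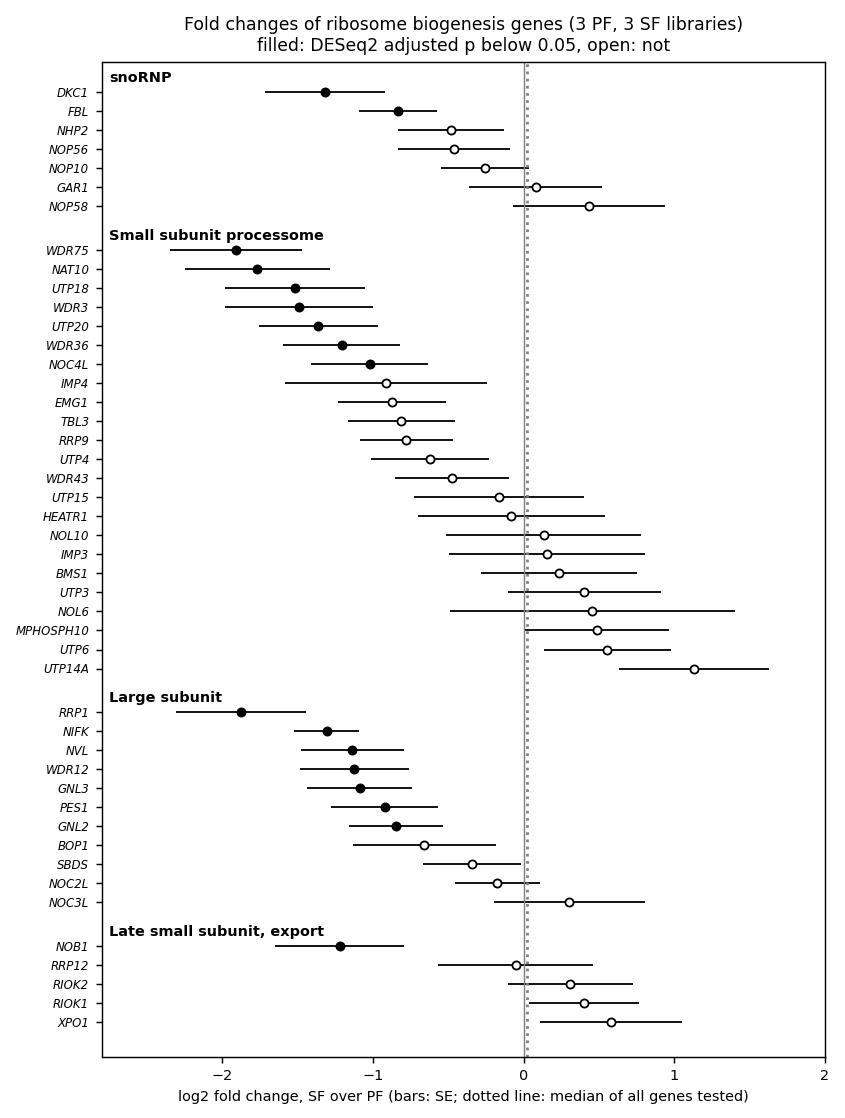
Log2 fold change of SF over PF for each member with its standard error (3 PF and 3 SF libraries), by group. Filled points passed a DESeq2 adjusted p below 0.05, the grey line is no change, and the dotted line is the median of all genes tested, 0.02. Under the usual scaling the 17 filled points lie between -1.91 and -0.83, and the 11 large subunit members hold 7 of them.

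Of the large subunit members 7 of 11 fell, the largest share of the 4 groups, with a median log2 fold change of -0.92. This did not extend to the large subunit factors outside the members. Of those 49 genes 14.3% fell (median -0.37), against 22.2% of the 36 other small subunit factors (median -0.45) and 11.0% of all genes. Differences between the groups were not tested. *NIFK*, a nucleolar RNA-binding protein that also binds the proliferation antigen Ki-67, had the lowest p of the members. It had 233, 223 and 173 TPM in PF, 139 TPM in PF replicate 4 and 73.5, 83.1 and 77.2 TPM in SF. The replicates of each group lay close together, with a wide gap between groups (-1.31 ± 0.21, DESeq2 adjusted p = 2.2e-07). *RRP1*, needed to process the large subunit precursor, had 244, 158 and 91.8 TPM in PF, 48.8 TPM in PF replicate 4 and 42.7, 56.6 and 23.9 TPM in SF. PF replicate 4 lay among the SF libraries and the other PF libraries above them (-1.88 ± 0.43, DESeq2 adjusted p = 3.8e-04). *NVL*, an ATPase that strips factors from the maturing particle, had 83, 54.4 and 57.1 TPM in PF, 20.6 TPM in PF replicate 4 and 33.3, 33.1 and 17.1 TPM in SF. Again only PF replicates 1 to 3 exceeded SF (-1.14 ± 0.34, DESeq2 adjusted p = 0.0091).

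*GNL3*, or nucleostemin, and *GNL2* are nucleolar GTPases. *GNL3* measured 67.2, 58 and 31.6 TPM in PF, 36.6 TPM in PF replicate 4 and 21.7, 20.7 and 23.9 TPM in SF, so the SF libraries were nearly equal and all PF libraries above them (-1.09 ± 0.35, DESeq2 adjusted p = 0.014). *GNL2* measured 147, 112 and 75.4 TPM in PF, 78.8 TPM in PF replicate 4 and 59.3, 49.2 and 58.7 TPM in SF. The order of the groups was the same, with a smaller fold change (-0.85 ± 0.31, DESeq2 adjusted p = 0.039). The PeBoW complex of PES1, BOP1 and WDR12 is needed for maturation of the large subunit RNAs. *WDR12* had 46.6, 37.4 and 20.1 TPM in PF, 51.1 TPM in PF replicate 4 and 15.6, 14.2 and 13.2 TPM in SF, where PF replicate 4 was the highest of the 7 libraries (-1.12 ± 0.36, DESeq2 adjusted p = 0.015). *PES1* fell less (-0.92 ± 0.35, DESeq2 adjusted p = 0.048), its lowest PF and highest SF library being 71.5 and 71.3 TPM. *BOP1*, at -0.66, did not pass. *NOC3L*, which works with NOC2L in large subunit assembly, had 26, 14.2 and 7.6 TPM in PF, 17.7 TPM in PF replicate 4 and 13.3, 16.9 and 21.8 TPM in SF. It was the lowest of the group and overlapped between stages (0.30 ± 0.50, DESeq2 adjusted p = 0.73). *NOC2L* and *SBDS*, a factor of the last cytoplasmic step, had fold changes of -0.17 and -0.34 and did not pass.

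Of the late small subunit and export factors 1 of 5 fell, and the median was 0.31. *NOB1*, the endonuclease that cuts the mature end of the small subunit RNA, had 86.8, 84.8 and 29.8 TPM in PF, 55.3 TPM in PF replicate 4 and 28.5, 26.4 and 22.4 TPM in SF. PF replicate 3 was only just above SF replicate 1, and the other PF libraries were well above (-1.22 ± 0.43, DESeq2 adjusted p = 0.029). It passed in 1 of the 6 fits that left out a library, the one without PF replicate 3. *RIOK2* and *RIOK1* are atypical kinases that act on late small subunit particles. *RIOK2* was the highest of the group, with 52.2, 73.5 and 43.2 TPM in PF, 143 TPM in PF replicate 4 and 53.4, 49.8 and 85.6 TPM in SF. *RIOK1* was the lowest, with 8.9, 4.66 and 5.46 TPM in PF, 7.87 TPM in PF replicate 4 and 6.8, 10.2 and 6.36 TPM in SF. Both overlapped between stages (0.31 ± 0.42 and 0.40 ± 0.36, DESeq2 adjusted p = 0.66 and 0.47). Most *RIOK1* counts, 83.8% in PF and 90.3% in SF, lay on 1 predicted non-coding transcript of 7943 bases. No curated transcript of *RIOK1* was matched, so its level may not be that of the coding RNA. *XPO1*, the exportin of both subunits and many other cargoes, had 15.6, 10.1 and 22.6 TPM in PF, 11 TPM in PF replicate 4 and 29.8, 19.7 and 19.5 TPM in SF. Its groups overlapped as well (0.58 ± 0.47, DESeq2 adjusted p = 0.42). *RRP12* was near no change (-0.05), with PF replicate 3 (8.9 TPM) below its other libraries.

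The direction of these calls held only relative to other genes. Scaled by the 25 oocyte markers in place of all genes, the median of all genes moved up by 2.43 on the log2 scale, all 17 fold changes turned positive (0.37 to 1.83), none passed, and 19 other members were called higher while 52.8% of all genes were. The median of all genes was then 2.54, and 30 of the 46 members lay below it. The factors of this scaling were 2.88, 2.66 and 1.49 in PF replicates 1 to 3 and 0.862, 0.767 and 0.157 in SF replicates 1 to 3. Counts are divided by them, so SF replicate 3 was raised far more than any other library. How far the turned directions rest on that library was not tested. Scaled by the 27 granulosa markers, which moved the median of all genes by -1.24, 33 members were lower beside 38.9% of all genes. With granulosa or the usual scaling 32 of 46 lay below the median of all genes. These places below the median test nothing. A scaling shifts all genes by nearly the same amount, so they could hardly change. On the usual scaling 16 of 25 oocyte markers fell (median -1.89), and 12 granulosa markers rose while 1 fell among 24 tested (median over all 27, 1.56). How far the share of oocyte RNA in a library sets the members' fold changes was not tested.

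By library, the mean log2(TPM + 1) of the 46 members was 5.86, 5.56 and 4.97 in PF replicates 1 to 3, 5.45 in PF replicate 4, and 4.92, 4.92 and 4.81 in SF. The oocyte list scored 6.96, 6.99 and 6.0 in PF, 3.96 in PF replicate 4, and 5.17, 5.31 and 3.19 in SF. The granulosa list scored 4.69, 4.35 and 4.22 in PF, 5.17 in PF replicate 4, and 5.11, 5.29 and 6.03 in SF. Apart from PF replicate 4 both lists separated the stages. PF replicate 4 had an oocyte score below SF replicates 1 and 2 and a member score above all SF libraries. SF replicate 3, with the lowest oocyte score of all, differed little from the other SF libraries in its member score. Each is a single library, and PF replicate 4 also held the stromal RNA described above. How their scores bear on the share of oocyte RNA was not tested. PF replicate 4 exceeded all SF libraries in 32 of 46 members, beside 28.0% of all genes tested. They were 12 of the 17 called and 20 of the 29 not called, and the called exceptions were *UTP18*, *NAT10*, *NOC4L*, *RRP1* and *NVL*. With PF replicate 4 in the fit, 11 members were lower beside 3.19% of all genes, 10 of them among the 17.

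**Figure D3:**
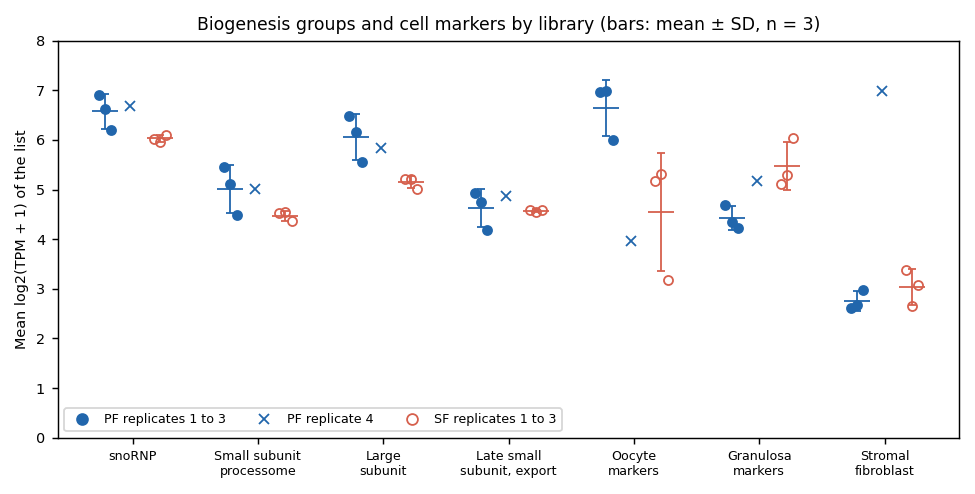
Mean log2(TPM + 1) of the 4 groups of biogenesis genes and of the oocyte, granulosa and stromal fibroblast markers in each library, with the mean and SD of PF replicates 1 to 3 and of SF (n = 3). Crosses are PF replicate 4, which joins neither group on the stromal fibroblast list at 6.99 while its biogenesis groups lie above the SF values.

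The libraries carry numbers in their names, which the labels do not explain. PF replicates 1 and 2 are numbered below 40 like SF replicate 1, and the rest lie above 40. Below 40 the member score was lower in SF by -0.78, and above 40, where PF replicate 3 faced SF replicates 2 and 3, by -0.11, against -0.58 over all 6 libraries. Of the 46 members 41 were lower in SF below 40 and 29 above 40, with median differences in log2(TPM + 1) of -0.94 and -0.29. The same counts over all genes were not made. With the number as a covariate 14 of the 17 stayed called (DESeq2), and 1518 of all 17910 genes tested were lower. Leaving out each of the 6 libraries in turn, 6 to 19 members were called lower, beside 927 to 1929 of all genes. *WDR75*, *UTP20*, *NAT10*, *RRP1* and *NIFK* passed every time. The count of members fell to 6 without PF replicate 1 (927 of 15163 genes lower). It fell to 8 without PF replicate 2 (951 of 15176 genes lower) or without SF replicate 2 (1312 of 14976). *NOC4L*, *PES1* and *WDR36* lost their calls without any one of PF replicates 1 and 2 and SF replicates 2 and 3. *GNL2* and *GNL3* lost theirs without any one of PF replicates 1 and 2 and SF replicates 1 and 2. *NOB1* kept its call only without PF replicate 3. *DKC1* lost its call without PF replicate 1 (DESeq2 adjusted p = 0.072), and *FBL* without PF replicate 2 or SF replicate 2 (highest adjusted p = 0.086).

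**Figure D4:**
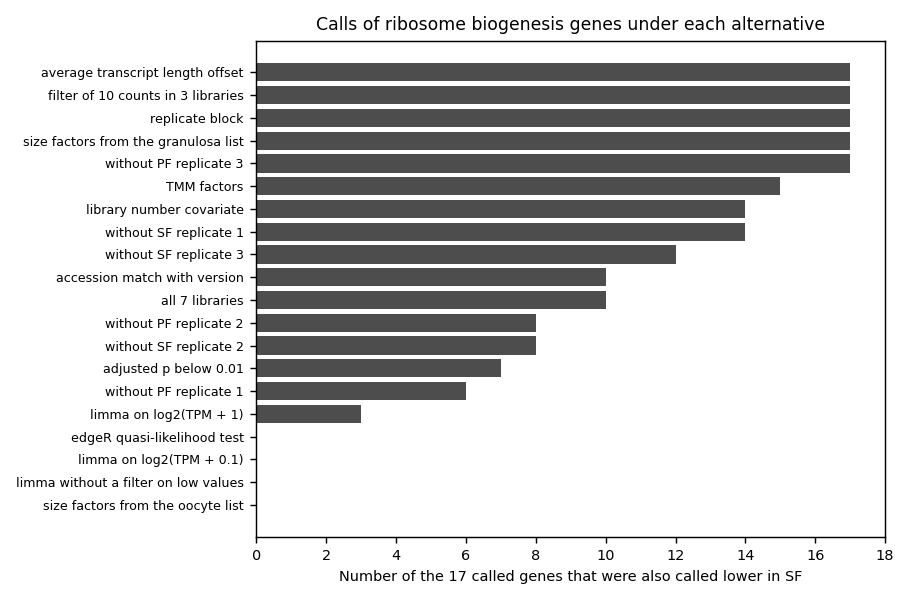
Number of the 17 called members that were also called lower in SF under each alternative fit. The bars run from 17 down to 0, with 10 for all 7 libraries, 3 for limma on log2(TPM + 1), and 0 for edgeR, limma with a smaller pseudocount or without a filter, and scaling by oocyte markers.

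Other genes of the pathway were read from lists of known factors. Of 131 genes of biogenesis outside the 46 members, 21 fell and 1 rose (DESeq2, beside 11.0% and 8.14% of all genes), with a median of -0.38. With PF replicate 4 in the fit 10 fell and none rose. Of the 36 other small subunit factors 8 fell (median -0.45). The lowest p was that of the rRNA methylase gene *DIMT1* (313, 254 and 168 TPM in PF, 59.7 TPM in PF replicate 4, 70.2, 72 and 27.2 TPM in SF, -2.01 ± 0.42, DESeq2 adjusted p = 8.7e-05). It was followed by the methyltransferase partner *TRMT112* (929.6, 891 and 584 TPM in PF, 158 TPM in PF replicate 4, 335, 259.9 and 175 TPM in SF, -1.52 ± 0.32, DESeq2 adjusted p = 1.0e-04) and by *PNO1*, whose protein sits at the cleavage site of NOB1. *PNO1* had 339, 366 and 207 TPM in PF, 105 TPM in PF replicate 4 and 120.5, 84.1 and 68.2 TPM in SF (-1.61 ± 0.34, DESeq2 adjusted p = 1.0e-04). PF replicates 1 to 3 exceeded SF in all 3 genes, but PF replicate 4 was below SF replicate 1 in each, and in *TRMT112* below every SF library. With it in the fit *TRMT112* was not called (DESeq2 adjusted p = 0.2), and *DIMT1* and *PNO1* were (0.046 and 0.049). Of the 49 other large subunit factors 7 fell (median -0.37). Their lowest p was that of *PPAN* (661, 606 and 309.9 TPM in PF, 130.4 TPM in PF replicate 4, 152, 135 and 85.7 TPM in SF, -1.95 ± 0.35, DESeq2 adjusted p = 2.8e-06). The helicase gene *DDX54* and *TEX10* fell by 1.28 and 1.36 on the log2 scale (DESeq2 adjusted p = 0.0025 and 0.0065, and 0.012 and 0.064 with PF replicate 4 kept). PF replicate 4 lay above SF in both (34.9 and 28.4 TPM), and in *PPAN* below SF replicates 1 and 2, where the call held (0.037).

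Among 17 assembly factors and nucleolar chaperones 3 fell (17.6%, beside 11.0% of all genes), and the median was 0.07. The 3 were the ATPase genes *RUVBL1* and *RUVBL2* (-0.86 ± 0.22 and -1.12 ± 0.29, DESeq2 adjusted p = 0.0016 and 0.0023), whose proteins help assemble snoRNPs and other complexes, and *NUFIP1* (-0.81 ± 0.30, adjusted p = 0.041), an assembly factor of box C/D particles. *NUFIP1* passed in none of the 6 fits that left out a library, and its level in PF replicate 4 (32.5 TPM) was below every SF library (36.6 to 37.9 TPM). Of 15 RNA polymerase I genes, which make the precursor, 1 fell and 1 rose (median -0.17). Each was 6.67% of the list, beside 11.0% of all genes lower and 8.14% higher. The polymerase subunit gene *POLR1E* (75.7, 67.1 and 36.5 TPM in PF, 39.5 TPM in PF replicate 4, 33.5, 23.8 and 15.7 TPM in SF, -1.16 ± 0.41, DESeq2 adjusted p = 0.031) fell. The transcription factor gene *UBTF* (41.9, 27.8 and 34 TPM in PF, 33.6 TPM in PF replicate 4, 58.5, 57 and 44 TPM in SF, 0.76 ± 0.27, DESeq2 adjusted p = 0.031) rose, and its SF libraries were all above PF, but it turned negative with granulosa scaling. The core subunit gene *POLR1B* had -0.66 ± 0.32 and did not pass (DESeq2 adjusted p = 0.14). Of 14 RNA exosome genes, which trim precursors, 2 fell (14.3%, beside 11.0% of all genes), with a median of -0.69. The 2 were *EXOSC9* (-1.54 ± 0.29, DESeq2 adjusted p = 1.4e-05) and *EXOSC8* (-1.57 ± 0.49, DESeq2 adjusted p = 0.012). The cofactor gene *MPHOSPH6* did not pass (-1.01 ± 0.41, DESeq2 adjusted p = 0.068). With PF replicate 4 kept, *RUVBL2*, *NUFIP1*, *POLR1E*, *UBTF* and *EXOSC8* lost their calls (DESeq2 adjusted p = 0.2, 0.34, 0.069, 0.058 and 0.12), while *RUVBL1* and *EXOSC9* kept them (0.004 and 0.025). Under oocyte scaling all 21 falls turned positive.

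The ribosomal proteins are what these factors assemble on the RNA. Of 78 cytosolic ribosome genes 69 had a fold change above 0 (median 0.37), where 49.2% of all genes were below 0. At an edgeR unadjusted p below 0.05, 0 were lower and 6 higher, beside 13.5% and 13.4% of all genes. DESeq2 called 0 lower and 1 higher (1.28%), beside 11.0% and 8.14% of all genes. The one was *RPL13* (341, 295 and 289 TPM in PF, 453 TPM in PF replicate 4, 475, 453 and 608 TPM in SF, 0.86 ± 0.30, DESeq2 adjusted p = 0.027). With PF replicate 4 kept it did not pass (0.31). *RPS12* and *RPS3*, next by p, did not pass (0.88 ± 0.39 and 0.68 ± 0.32, DESeq2 adjusted p = 0.09 and 0.12). With granulosa scaling all 78 fold changes were below 0, and with oocyte scaling all were above 0. The difference between the ribosomal proteins and the 46 members was not tested.

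**Figure D5:**
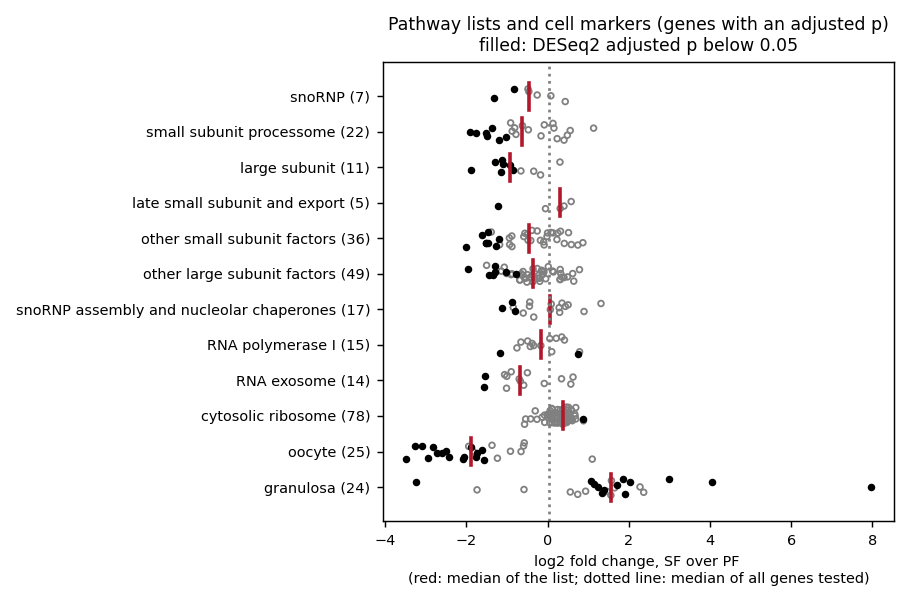
Log2 fold change of SF over PF for the genes of each list with an adjusted p (number in brackets), filled where the DESeq2 adjusted p was below 0.05. Red bars are medians over all genes of a list, tested or not. Among pathway lists they run from -0.92 in the large subunit members to 0.37 in the cytosolic ribosome. The oocyte list lies at -1.89 and the granulosa list at 1.56.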

How the data were processed

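RNA of whole bovine follicles was sequenced from 4 PF and 3 SF libraries, grouped by their titles. According to the study, SMART-Seq v4 cDNA was read in pairs, trimmed, and quantified with Salmon on the ARS-UCD1.3 transcriptome. Per the file headers, the authors deposited for each RefSeq transcript its length, an estimated count and a TPM. Salmon shares reads that fit several transcripts, so estimated counts need not be whole. Of 76123 transcripts, 50205 were matched by accession without version to 23704 genes of a RefSeq table of ARS-UCD2.0, used for names only. The unmatched held 9.71% to 10.7% of a library's counts, and 15 members had fewer transcripts in the files than in the table. Since the builds differ, no coordinates or sequences are given.

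Counts were summed per gene, rounded and tested in R 4.3.3 with DESeq2 1.42.0 (Wald test, median-of-ratios factors, Benjamini-Hochberg adjusted p below 0.05 over all genes), without PF replicate 4. The study also used the Wald test of DESeq2 and left that library out, but summarized transcripts with tximport and describes a normalization by TPM. Alternatives used edgeR 4.0.16, limma 3.58.1 on log2(TPM + 1) or log2(TPM + 0.1) for genes at 1 TPM or more in at least 3 libraries, other scalings, filters, covariates and libraries left out. On simulated counts signs were recovered, DESeq2 called more unchanged than changed genes, and edgeR called none. The members and lists were chosen with earlier results of these data known, and the study names this pathway for these samples, so the direction is not independent evidence. Values per library were given by rule for called members (at most 6 per group, by p) and those with the highest and lowest level and fold change, and of each other list the 3 lowest p were named. *NOL6*, *IMP3*, *RRP12* and *PES1* values were added after they were seen. No 2 libraries of a group were duplicates. PF and SF libraries of the same replicate number did not vary together in every pair (correlations 0.119, 0.000 and 0.205 over 14812 genes), so they were not treated as pairs.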

Additional observations from a re-analysis of the deposited data

Results flagged for a closer look

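The mean log2(TPM + 1) of the 17 stromal fibroblast genes was 6.99 in PF replicate 4, far from the 2.61 to 2.98 of PF replicates 1 to 3. It was 1 of 32 sets of 4 values examined for such gaps, of which chance marks about 1 in 20. No set of biogenesis genes was marked in this way. How far this library's stromal RNA bears on its biogenesis levels was not tested.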

How the results depend on the processing

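Counts in this paragraph are of genes past the threshold, with the value of the main comparison first. All genes called were 2876. They became 1580 with versioned accessions (an alternative chosen after seeing the data, since that match leaves 11 members without a transcript), 1588 at adjusted p below 0.01, 858 with all 7 libraries, 792 with limma on log2(TPM + 1), 2 with log2(TPM + 0.1), 0 with limma without a filter, 0 with edgeR, 5956 with granulosa scaling and 8623 with oocyte scaling. With limma without a filter, 4043 genes had an unadjusted p below 0.05, and with edgeR 3844. Members lower were 17 at first, then 11 with versioned accessions, 7 at adjusted p below 0.01, 11 with all 7 libraries, 3 with limma on log2(TPM + 1), 33 with granulosa scaling, and 0 with each of edgeR, both other limma fits and oocyte scaling. Members higher were 0, and 19 with oocyte scaling.

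By group, snoRNP falls were 2, then 1 at adjusted p below 0.01, 6 with granulosa scaling, and 0 with edgeR, limma or oocyte scaling. Processome falls were 7, then 3 with versioned accessions or at adjusted p below 0.01, 4 with all 7 libraries, 1 with limma on log2(TPM + 1), 14 with granulosa scaling, and 0 with edgeR, the other limma fits or oocyte scaling. Large subunit falls were 7, then 3 at adjusted p below 0.01, 4 with all 7 libraries, 2 with limma on log2(TPM + 1), and 0 with edgeR, the other limma fits or oocyte scaling. Late small subunit falls were 1, then 3 with granulosa scaling, and 0 at adjusted p below 0.01, with the library number covariate, edgeR, limma or oocyte scaling. Other pathway falls were 21, then 13 at adjusted p below 0.01, 10 with all 7 libraries, 7 with limma on log2(TPM + 1), 91 with granulosa scaling, and 0 with edgeR, the other limma fits or oocyte scaling. Their rises were 1, then 70 with oocyte scaling and 2 with the replicate block. They were 0 with versioned accessions, the transcript length offset, adjusted p below 0.01, all 7 libraries, edgeR, limma or granulosa scaling. Beside these counts, 38.9% of all genes tested were lower with granulosa scaling and 52.8% higher with oocyte scaling. With all 7 libraries 3.19% of all genes were lower, and with limma on log2(TPM + 1) 4.25%.

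The median fold change of all members, snoRNP, processome, large subunit and late factors was 2.02, 2.18, 2.04, 1.62 and 2.86 with oocyte scaling, -1.83, -1.70, -1.91, -2.12 and -1.04 with granulosa scaling, and -0.11 for the late factors with all 7 libraries. Of the 46 members, 8 changed sign with all 7 libraries, 2 with the library number covariate, 2 with the replicate block, 14 with granulosa scaling, 32 with oocyte scaling, 1 with edgeR and 1 with limma on log2(TPM + 1). Among the genes named by rule, those that changed sign were found with all 7 libraries (*NOP58* -0.042, *RIOK2* -0.27), with the library number covariate (*HEATR1* 0.11), with granulosa scaling (*NOP58* -0.96, *UTP14A* -0.15, *NOC3L* -1.0, *RIOK2* -1.04, *RIOK1* -0.82, *XPO1* -0.62, *UBTF* -0.46, *RPL13* -0.43, *RPS12* -0.37, *RPS3* -0.60) and with oocyte scaling (*DKC1* 1.03, *FBL* 1.71, *NOP10* 2.18, *WDR75* 0.44, *NAT10* 0.37, *UTP20* 1.06, *UTP18* 0.61, *WDR36* 1.32, *WDR3* 0.84, *HEATR1* 2.19, *NIFK* 1.29, *RRP1* 0.44, *NVL* 1.14, *GNL3* 1.62, *WDR12* 1.47, *GNL2* 1.83, *NOB1* 1.37, *DIMT1* 0.17, *TRMT112* 0.84, *PNO1* 0.82, *PPAN* 0.46, *DDX54* 1.32, *TEX10* 1.46, *RUVBL1* 1.67, *RUVBL2* 1.24, *NUFIP1* 1.76, *POLR1E* 1.19, *POLR1B* 1.99, *EXOSC9* 0.95, *EXOSC8* 0.64, *MPHOSPH6* 1.3). The scaling itself shifts every gene. For the other changes the cause was not tested.

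Leaving out 1 library gave 1887 to 3947 genes, with 927 to 1929 lower. It gave 6 to 19 members lower and 0 to 1 higher. By group these fits gave 1 to 2 snoRNP, 3 to 9 processome, 2 to 7 large subunit and 0 to 1 late genes. Other pathway falls were 11 to 28, with 0 to 1 rises. Medians ranged from -0.59 to -0.44 for members, -0.47 to -0.33 for snoRNP, -0.63 to -0.44 for the processome, -1.13 to -0.83 for the large subunit and -0.043 to 0.36 for late factors. The member score difference ranged from -0.82 to -0.38 (-0.11 for library numbers above 40) and that of the share from -0.33 to -0.21 percentage points. Among the genes named by rule, fold changes that crossed 0 were *NOP58* (-0.19 to 0.69), *HEATR1* (-0.38 to 0.18) and *RIOK2* (-0.043 to 0.51).

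For same-numbered libraries the labels give only the shared number, and whether they share animals is not stated. With the replicate block, all genes called rose to 4077, and the 17 members stayed the same. The depth of 42 to 14046 counts per member and library, with 3 libraries per group, limits *HEATR1*, *NOL6*, *IMP3* and *IMP4* most, which had the fewest counts.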
